A study of Homo sapiens with 3 samples.

Results

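The cytosolic ribosome of HT-29 cells, an established human colon adenocarcinoma line of epithelial origin, was examined through the messenger RNAs of its proteins. The genes were chosen by symbol alone (RPL or RPS followed by a number and, where present, A, X or L, together with RPSA, RPLP0, RPLP1 and RPLP2), without pseudogenes. RefSeq lists 81 protein-coding genes of this description. Of these, 55 had at least 1 probe set whose annotation gave a single gene symbol, out of 11963 genes named this way on the array: 34 of the large subunit and 21 of the small subunit. Together the 55 genes had 93 probe sets. All 3 Affymetrix arrays came from cultures, described as biological replicates, that were seeded at 50000 cells per cm2, grown for 24 h in McCoy's 5A medium with 10% serum and 5% CO2, and then given interferon-γ (IFN-γ) at 200 U/ml for 24 h. IFN-γ is a cytokine released by T and NK cells. No untreated culture was analysed here, so every value is a level in treated cells of 1 cell line, and none measures a response to IFN-γ.

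Ribosomes consist of a small subunit, which reads the messenger RNA, and a large subunit, which joins amino acids, each built from ribosomal RNA and many small proteins. Proteins of the large subunit are named RPL and those of the small subunit RPS, and a lateral stalk of acidic P proteins recruits the translation factors. Their genes are active in nearly all cells. Their messenger RNAs typically begin with a terminal oligopyrimidine (TOP) tract, a C followed by a run of C and T, through which growth signals acting on the kinase mTOR and the protein LARP1 control their translation. Many of these genes also carry small nucleolar RNAs (snoRNAs), guides of RNA modification, in their introns. They have many processed pseudogenes, whose sequences can share probes with the gene.

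The probe set names were tested against the values first, because they appeared displaced in the deposited table. For 4310 genes with several probe sets, log2 signals were compared between the first 2 of each. Under the names as deposited, this gave r = 0.19 and rho = 0.19 across genes, which are not independent replicates. With 15 values left unnamed at the top, followed by a block of 100 named probe sets, a block of 493 and the 21622 others, the correlation was r = 0.60 and rho = 0.60. With this order moved by 1 row either way it was r = 0.17 and rho = 0.18. The number of ribosomal protein genes above background was 50 in this order, 9 under the names as deposited and 32 with a shift of 1 row in either direction. Over all genes the counts were 4731 in this order, 408 as deposited and 1025 and 974 with the shifts. The median log2 signal of the ribosomal protein genes was 14.05 in this order, 9.40 as deposited and 11.80 and 11.92 with the shifts. The background limit, explained below, was computed anew under each order, so these counts do not reflect ribosomal protein signals alone. The 55 genes have probe sets in the first block (18) and in the last (75), and 6 genes have them in both. For 5 of these 6 the 2 blocks gave mean log2 signals within 1 unit of each other, for example 7459 and 7491 in linear signal for RPL14. RPL18 was the exception, with 17269 in the first block and at most 589 in the last. The order was inferred from these data, and every gene value below rests on it. Ribosomal protein signals were among the values compared between the orders, so their detection below is not independent of this check.

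Each deposited array had a mean signal of 500.3 once the highest and lowest 2% of values were removed, and the median signal was 137 to 144. Of the summed signal, 11.5%, 12.6% and 15.5% came from the top 100 probe sets of replicates 1, 2 and 3. Of 9 measured epithelial markers 8 were detected, the exception being the cadherin CDH17, and none of 12 measured markers of leukocytes, endothelium and fibroblasts was detected by limma, with 0 at an unadjusted p under 0.05. That list does not hold every such gene. The collagen genes COL1A1 (423, 526 and 185) and COL5A3 (1116, 1891 and 602) and the leukocyte gene CD53 (236, 497 and 416), looked up after the values were seen, were detected, with limma adjusted p = 0.0259, 4.8e-10 and 0.0153. COL1A1 and COL5A3 were lowest in replicate 3 and CD53 in replicate 1, and their part in the results below was not tested.

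Nearly all measured ribosomal protein genes lay far above background in the IFN-γ-treated cells. The question was whether a gene's signal exceeded the background limit of its array, for which the 95th percentile of 69 genes known from other tissues was used (256.5, 239 and 174 in replicates 1, 2 and 3). By limma's one-sided test with Benjamini-Hochberg adjustment over all 11963 genes, 50 of the 55 were detected, against 39.5% of all genes. All 21 small subunit genes and 29 of 34 large subunit genes passed. Over all 55 genes the median log2 signal was 6.26 units over the limit, compared with -0.19 over all genes on the array. Among the 50 detected genes, signals ran from 4434 to 22945 in replicate 1, from 4855 to 26578 in replicate 2 and from 4129 to 34627 in replicate 3, so no detected gene came near the limit on any array. Mitochondrial ribosomal proteins, which build the separate ribosome of that organelle, were detected in 47 of 51 cases, with a median of 2.70 log2 units over the limit. Proteasome subunits were detected in 33 of 33, with a median of 4.38. These are medians of signals over background, and signals of different probe sets are not on 1 scale of abundance.

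**Figure D1:**
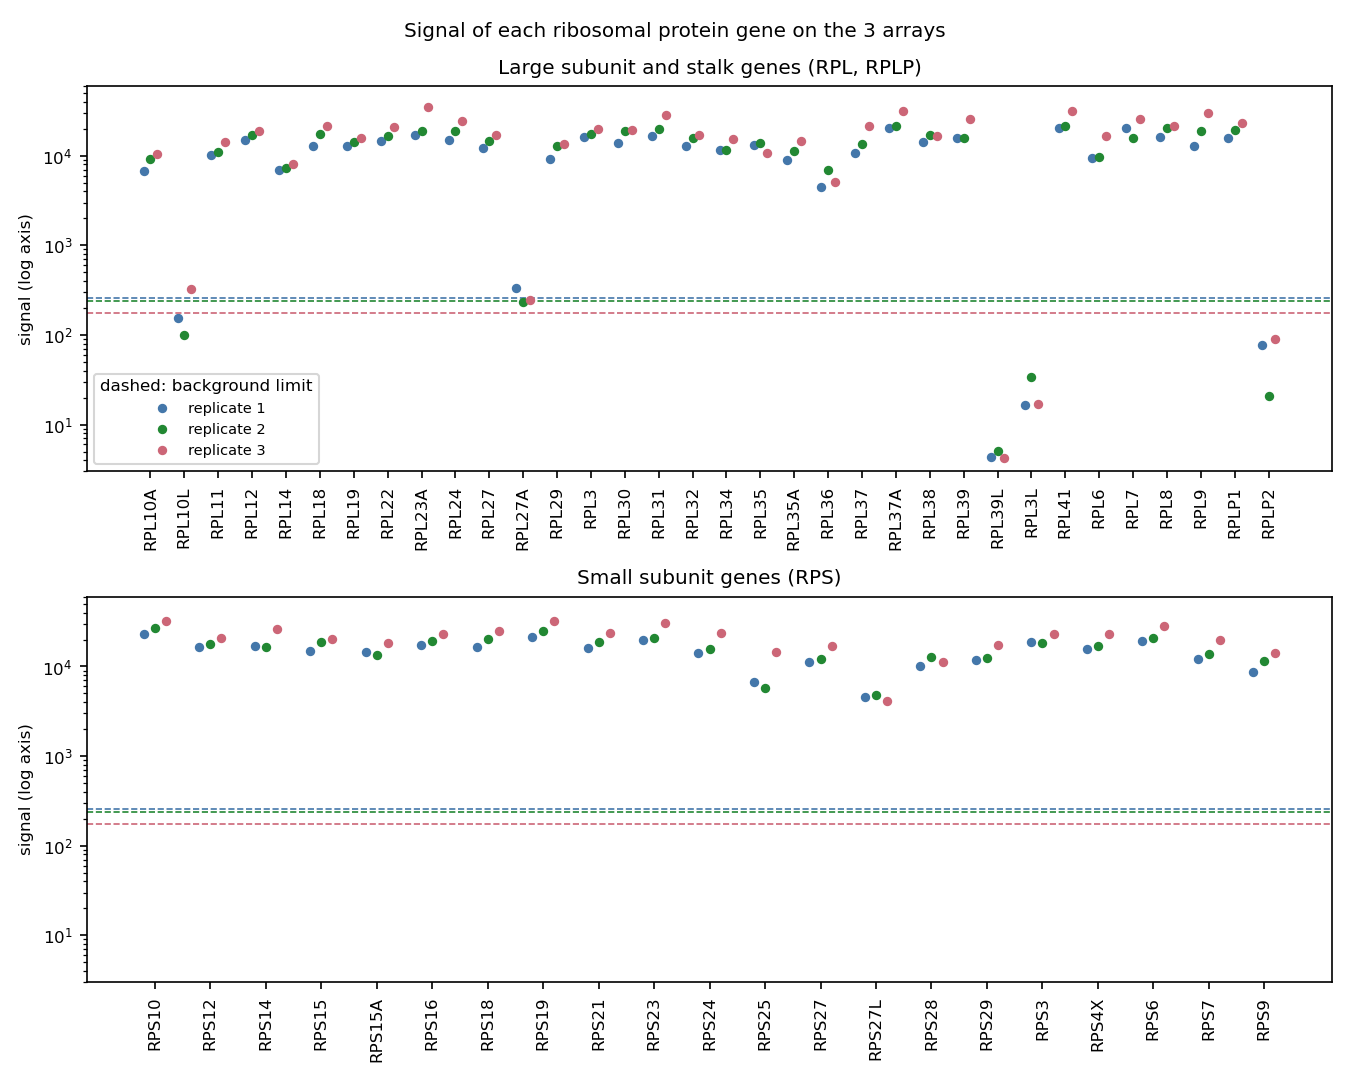
Signal of each of the 55 ribosomal protein genes (brightest single-symbol probe set, log axis) on the arrays of replicates 1, 2 and 3, with large subunit and stalk genes above and small subunit genes below. Dashed lines mark the background limits of 256.5, 239 and 174; the 50 detected genes lie at 4129 or more. RPL3L, RPL39L and RPLP2 lie under the limit on every array, RPL10L is above it in replicate 3 alone, and RPL27A is above it in replicates 1 and 3.

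The annotated starts of these genes are shown because a pyrimidine tract at the start is the feature that the family is best known to share and that the choice by symbol did not use. Each stretch runs from 10 bases before the RefSeq start through the first 20 transcribed bases on the gene's strand (GRCh38.p14), with the tract in capitals where there is one.
RPS6: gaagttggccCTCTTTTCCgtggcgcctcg
RPS14: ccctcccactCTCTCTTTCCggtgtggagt
RPL35A: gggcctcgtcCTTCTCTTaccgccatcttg
RPLP1: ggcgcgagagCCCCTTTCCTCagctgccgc
RPLP2: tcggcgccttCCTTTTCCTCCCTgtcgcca
RPS25: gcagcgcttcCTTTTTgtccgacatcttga
RPL9: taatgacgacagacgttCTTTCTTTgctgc
RPL3: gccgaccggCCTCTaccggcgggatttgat
RPS27: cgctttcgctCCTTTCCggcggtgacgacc
RPS27L: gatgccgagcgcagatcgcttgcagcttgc
RPL10L: gtagttaagagagcgcattttgacttcgag
The stretch of RPS6 lies at chr9:19380217-19380246 on the minus strand, that of RPLP1 at chr15:69452808-69452837 on the plus strand and that of RPS27 at chr1:153990752-153990781 on the plus strand. The paralogue RPS27L begins at chr15:63157458-63157487 on the minus strand. In RPS6, RPS14, RPL35A, RPLP1, RPLP2, RPS25 and RPS27 the tract begins at the first transcribed base, in RPL3 at 1 base before it and in RPL9 at 7 bases after it. RPS27L and RPL10L have no such tract within 10 bases of the start.

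Most ribosomal protein genes had the tract, searched on the transcribed strand as a C followed by at least 4 bases that were each C or T. The RefSeq table held starts for 64 of the 81 genes (47 of the 55 measured), and a gene with several starts was counted if any of them matched. The tract began exactly at the start in 46 of 64 genes, 71.9%, compared with 5.14% of all 27305 genes in the table. Within 10 bases either side it was found in 57 of 64, 89.1%, compared with 38.4% of all genes. Mitochondrial ribosomal proteins had it at the start in 6 of 69 genes, 8.70%, and other detected genes in 7.85%. The plain word CTTTC, which overlaps the tract, began within 10 bases of the start in 46.9% of the ribosomal protein genes and 4.61% of all genes. Its reverse complement GAAAG, the same word on the other strand, was found in 3.12% and 3.29%. A match of letters is a description of the annotated start and does not show where transcription began in these cells.

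**Figure D2:**
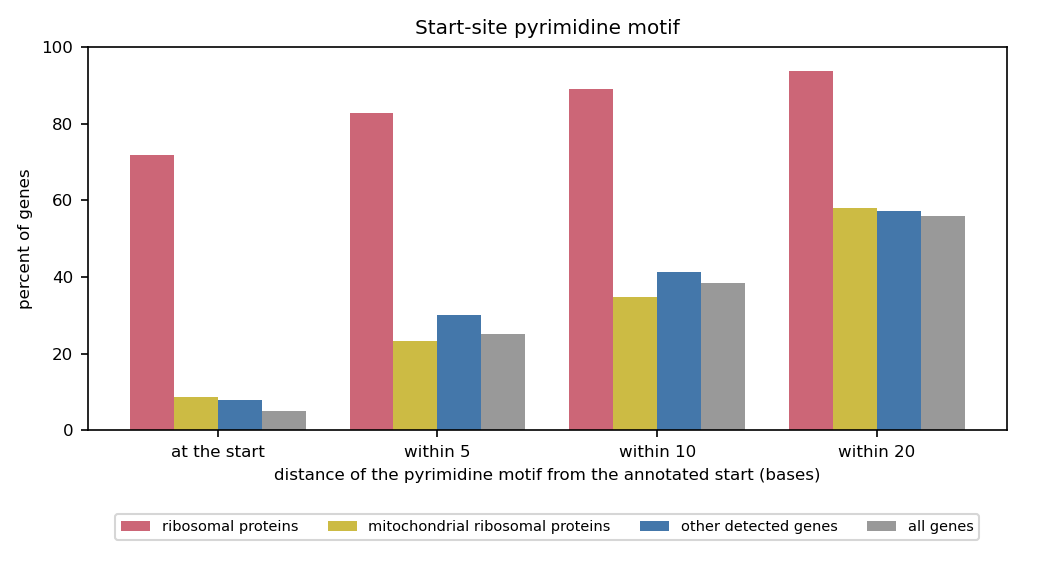
Percent of genes whose annotated RefSeq start has a C followed by at least 4 pyrimidines, exactly at the start or within 5, 10 or 20 bases of it, for 64 ribosomal protein genes, 69 mitochondrial ribosomal proteins, other detected genes and all 27305 genes of the table. The ribosomal protein genes reach 71.9% at the start, where all genes reach 5.14%.

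The stalk was represented by RPLP1 and RPLP2, the P1 and P2 proteins that pair on the scaffold protein RPLP0. RPLP1 had signals of 15854, 19184 and 23009 in replicates 1, 2 and 3, and exceeded the limit by 6.44 ± 0.44 (SE) on the log2 scale (limma adjusted p = 4.4e-14). RPLP2 had 76.5, 20.7 and 89.7 on the brighter of its 2 probe sets and was not detected (limma adjusted p = 1). All 3 arrays lay under the limit for RPLP2 and far above it for RPLP1. A further probe set lists RPLP2 together with SNORA52, a snoRNA, and so names no single gene. Its signals were 13986, 21228 and 23541, high on all 3 arrays. RPLP0 had no single-symbol probe set.

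RPL27A, a large subunit protein, was in a similar position. Its single-symbol probe set had signals of 338, 234 and 245, above the limit in replicates 1 and 3 and just under it in replicate 2, and was not detected, with a log2 excess of 0.29 ± 0.27 (SE) and a limma adjusted p of 0.345. It passed when the limit was set at the 90th percentile (limma adjusted p = 0.00784). A probe set listed under both SNORA3A and RPL27A had 19019, 20078 and 30582. Which transcripts this probe set and the dim one detect was not tested.

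The remaining undetected genes were paralogues, extra copies of ribosomal protein genes with narrower expression. RPL3L, known as the striated-muscle counterpart of RPL3, had signals of 16.6, 34.3 and 16.8 for a log2 signal of -3.38 against the limit (limma adjusted p = 1). RPL3 itself had 16130, 17378 and 19707. RPL39L, a paralogue of RPL39 best known from testis, had 4.34, 5.12 and 4.28, while RPL39 had 15877, 15633 and 25439. For both pairs every array placed the widely expressed gene above the limit and its paralogue under it. RPL10L, a testis counterpart of RPL10, had 153, 99.3 and 329, which was above the limit in replicate 3 alone (limma adjusted p = 1), and RPL10 had no single-symbol probe set. RPS27L, a paralogue of RPS27 described as a p53 target, was the only detected 1 of these 4 paralogues, with 4586, 4855 and 4129. Its parent gene RPS27 had 11156, 12262 and 16906. RPS27L was lowest in replicate 3, where RPS27 was highest.

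Several members are also known for roles outside the ribosome or in disease. RPL11, which binds MDM2 and so stabilises p53 when ribosome assembly fails, had signals of 10296, 10968 and 14101. RPS3, which also takes part in DNA repair and NF-κB signalling, had 18566, 18054 and 23233. RPS6, the classical substrate of the S6 kinases downstream of mTOR, had 19108, 20844 and 27998. RPS19, the gene most often mutated in Diamond-Blackfan anaemia, had 21109, 25003 and 31807. In each of these 4 genes replicate 3 was the highest array. Of 19 listed genes linked to that anaemia 14 were measured and 14 detected, and of 12 listed genes of the MDM2 and p53 pathway 8 were measured and 8 detected. These shares are near the 90.9% detected over all 55 ribosomal protein genes, and 39.5% of all genes were detected. RPL13A, which joins EPRS1, SYNCRIP and GAPDH in the GAIT complex that silences inflammatory messages after IFN-γ in myeloid cells, had no single-symbol probe set. The other 3 members of that complex were detected, with mean signals of 1638 ± 147 (SD, n = 3) for EPRS1, 3739 ± 466 (SD, n = 3) for SYNCRIP and 23750 ± 5997 (SD, n = 3) for GAPDH.

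Probe sets of the same ribosomal protein gene often lay on opposite sides of the background limit. Of the 93 probe sets 73 were detected in limma's fit over all 19065 single-symbol probe sets, where 34% of all probe sets passed. In 10 of the 23 genes that have several, detected and undetected probe sets occurred together. The same count over all genes with several probe sets was not made, so whether this is particular to ribosomal protein genes was not tested. RPS6 had probe sets with mean signals of 18251, 22650 and 18562 and 1 at 16.3, which is under the limit and gives only a bound. RPS14, a small subunit protein, had 19709 on 1 probe set and 178 and 23.6 on the others. RPL35A had 11756 against 26.3 and 20.6. The low probe sets of RPS6, RPS14 and RPL35A were under the limit on all 3 arrays, and their high ones above it on all 3. RPS12 (18523 and 43.0), RPS28 (11325, 211 and 44.1) and RPL37A (24331, 192 and 124) gave the same picture. So did RPL14 (7459, 7491 and 41.1) and RPS10 (22689, 24847, 27151 and 155). In each of these 8 genes at least 1 probe set lay above and 1 under the limit on all arrays.

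Among the ribosomal protein probe sets, those with a suffix were more often detected. A suffix of _x_at marks designs that can cross-hybridise with related sequences, and _s_at marks designs shared by several transcripts. Of 67 probe sets with such a suffix 60 were detected, and of 26 without it 13 were. The same split over all 19065 single-symbol probe sets was not made, so whether the difference is particular to these genes was not tested. For 43 of the 55 genes the brightest probe set carried a suffix. Without these probe sets 24 genes remained measured and 13 were detected. Over all genes 2807 of 8369 were detected in that setting, against 4731 of 11963 with them. RPL14, RPL35A, RPL37A, RPS6 and RPS14 then lay under the limit, which was computed anew in that setting. Their log2 values were -2.17, -3.36, -0.73, -3.75 and -0.078, because only dim probe sets were left. A contribution of pseudogenes or related genes to the bright probe sets was not tested.

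**Figure D3:**
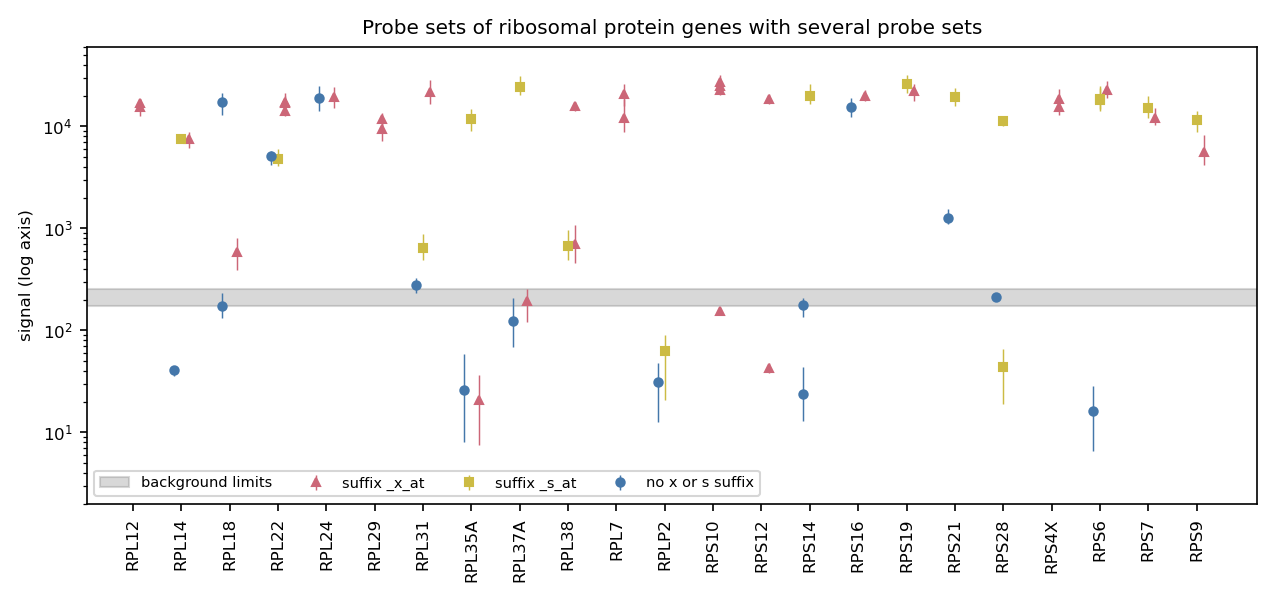
Mean signal (log axis) of every single-symbol probe set of the 23 ribosomal protein genes that have several, with bars from the lowest to the highest array and symbols for the probe set suffix. The grey band spans the 3 background limits (174 to 256.5); RPS6, RPS14 and RPL35A each have probe sets far above it and others under the band.

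The ribosomal protein genes were brighter on the array of replicate 3 than on the others, and together. Their probe sets held 5.74% of the summed signal in replicate 1, 6.31% in replicate 2 and 7.56% in replicate 3. Over the detected members the median signal was 14316, 16448 and 20468. The highest of the 3 signals was that of replicate 3 in 47 of 55 genes (45 of the 50 detected), against 34.4% of all detected genes. In 39 of 55 the signal was lowest in replicate 1, intermediate in replicate 2 and highest in replicate 3, against 10.4% of all detected genes. The median log2 difference was 0.55 for replicate 3 minus 1, 0.35 for replicate 3 minus 2 and 0.15 for replicate 2 minus 1. Over all detected genes the same medians were -0.087, -0.038 and -0.028. Each array is 1 culture, so these differences were not tested. In RNA from a whole culture, fewer cells of a kind and less RNA per cell cannot be told apart. Of 17 genes with several detected probe sets, 16 had all of them higher in replicate 3 than in replicate 1. RPL38 was the exception, with log2 differences of 0.22 on its brightest probe set and -0.998 and -0.868 on the others. This count was not made for other genes. On the probe set used for each gene, 92.7% of the ribosomal protein genes were higher in replicate 3 than in replicate 1. The share was 85.2% of the bright genes described below and 42.4% of all detected genes.

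Other bright genes were also mostly highest in replicate 3, with lower shares and a lower median difference than the ribosomal protein genes. Among 115 other genes with a mean log2 signal of 13 or more, 69.6% were highest in replicate 3, compared with 85.5% of the ribosomal protein genes. The signal was lowest in replicate 1, intermediate in replicate 2 and highest in replicate 3 in 34.8% of these bright genes and in 70.9% of the ribosomal protein genes. Their median difference of replicate 3 minus 1 was 0.38, against 0.55, and the difference between both groups of genes was not tested. The bright genes were also dimmer, with a median of 5.66 log2 units over the limit against 6.28 for the detected ribosomal protein genes. The groups were not matched in signal, so these values do not separate membership from brightness. Among the 51 mitochondrial ribosomal proteins the median was 0.045, and 17 were highest in replicate 3. After quantile normalization, which gives the 3 arrays 1 common distribution of signals, the ribosomal protein median was 0.034 for replicate 3 minus 1. In that setting 32 of 55 genes, 58.2%, were higher in replicate 3 than in replicate 1. The share was 46.1% of all detected genes, 43.5% of the bright genes and 54.9% of the mitochondrial ribosomal proteins. Signal level moved with the result in this way, and no batch is named in the labels.

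**Figure D4:**
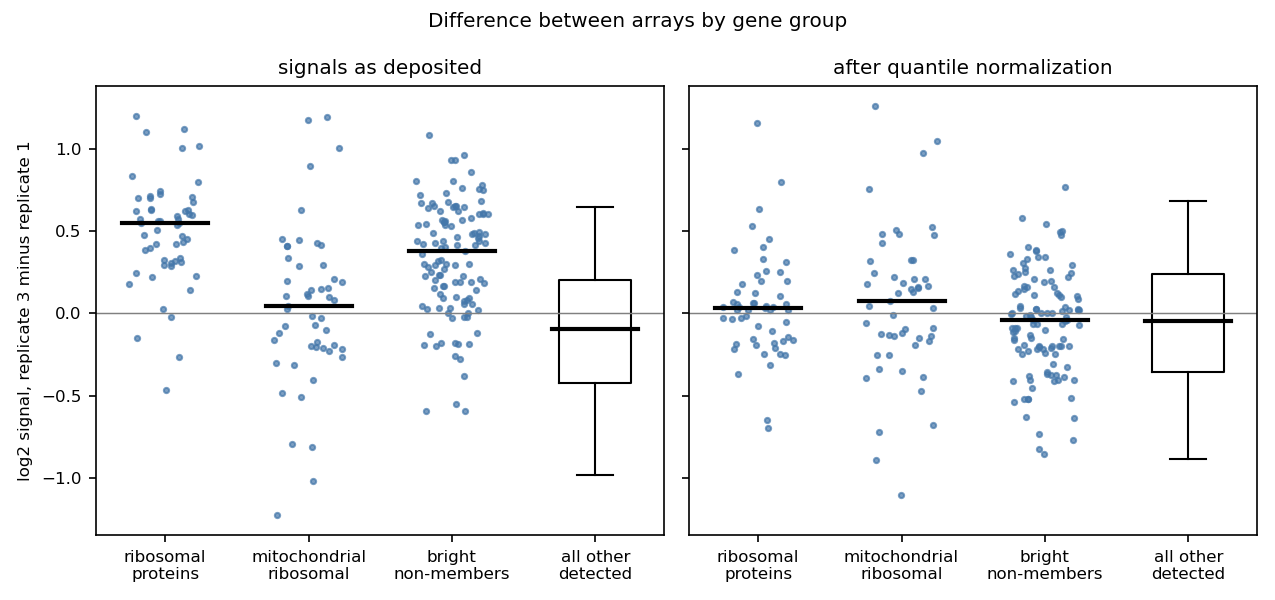
Log2 signal of replicate 3 minus replicate 1 for 55 ribosomal protein genes, 51 mitochondrial ribosomal proteins, 115 other genes with a mean log2 signal of 13 or more and all detected genes outside the ribosomal proteins, as deposited and after quantile normalization. Points are genes, thick lines medians, and the box spans the quartiles with whiskers from the 5th to the 95th percentile; the ribosomal protein median is 0.55 as deposited and 0.034 after normalization.

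The spread of the ribosomal protein genes between arrays was like that of other genes as deposited, and smaller after quantile normalization. The median SD of log2 signal over the 3 arrays was 0.30 for the 50 detected members as deposited, close to 0.29 for all detected genes. After quantile normalization it was 0.11 for the detected members, 0.28 for all detected genes, 0.19 for the 115 bright non-members and 0.23 for the mitochondrial ribosomal proteins. Small subunit genes had a median of 0.095 and large subunit genes, with the undetected ones, 0.17. Quantile normalization gives the brightest probe sets of each array the same set of values, which can lower the spread of a very bright group. The bright non-members were dimmer, with a median of 5.66 log2 units over the limit against 6.28 for the detected members. These SDs therefore do not show that the members varied little between cultures.

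A few genes departed from the rest. RPLP2 and RPL10L had the largest SDs (1.16 and 0.88 log2 units), at signals around or under the limit, and RPL3L had 0.60 far under it. RPS25, a small subunit protein needed for initiation at some viral internal entry sites, had the largest SD of the detected genes, 0.71, with 6665, 5824 and 14535. Its replicate 3 stood apart from both other arrays, and the difference of replicate 3 minus 1 was 1.12 as deposited and 0.80 after quantile normalization. RPL9 followed with an SD of 0.60 and signals of 12946, 18809 and 29839, different on all 3 arrays. The smallest SDs were those of RPS27L (0.12), RPL14 (0.12) and, far under the limit, RPL39L (0.14). On the probe set used for it, RPL14 had 6886, 7326 and 8164, so that its arrays lay closer together than those of most members. Its other detected probe set was about as bright and less even, with 6136, 7441 and 8897. The log2 difference of replicate 3 minus 1 was 0.25 on the first and 0.54 on the second.

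Further genes were picked after their values were seen. RPL23A, a large subunit protein at the exit of the peptide tunnel, had 17218, 18684 and 34627, and RPL37 had 10628, 13367 and 21564. Both were highest in replicate 3 by about 1 log2 unit over replicate 1 (1.01 and 1.02). RPL35, which sits near the same exit, had 13043, 13850 and 10842. It was the detected gene with the most negative difference of replicate 3 minus 1, -0.27 as deposited and -0.65 after quantile normalization. RPL36 (4434, 6856 and 5030), RPL38 (14069, 17203 and 16439) and RPS28 (10088, 12730 and 11156) were highest in replicate 2. For RPL38 this held for the brightest probe set only. Its other detected probe sets had 969, 569 and 485, and 1067, 453 and 585, highest in replicate 1.

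The pyrimidine tract at the start was set beside the difference between arrays. The 31 detected members with the tract at the start had a median log2 difference of replicate 3 minus 1 of 0.58, and the 13 without it had 0.51. The 314 detected non-members with it had -0.077, and the 3687 without it -0.099. After quantile normalization the medians were 0.037 with the tract and 0.020 without it for the members. For the non-members they were -0.076 and -0.045. Members with the tract were also brighter, with a median log2 signal of 14.17 against 13.82. These medians are descriptions of single arrays, and a link between the tract and the difference between arrays was not tested.

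Genes that work with the ribosome were mostly detected too. Of 7 further ribosomal genes outside the naming rule 3 were measured and detected: FAU, which encodes the small subunit protein RPS30 fused to a ubiquitin-like protein, at 12275, 15889 and 14828, RPL36AL at 3259, 5511 and 6575, and RPL26L1 at 1234, 1457 and 1753. All 3 were lowest in replicate 1. Of the translation factors and other genes known for TOP messages, 11 of 13 listed were measured and all 11 detected, including the elongation factors EEF1A1 (21340, 24774 and 33578), EEF1D (7271, 6844 and 6562) and EEF2 (6789, 9288 and 8233). Their median log2 difference of replicate 3 minus 1 was 0.29. EEF1A1 was highest in replicate 3, whereas EEF1D was lowest there and EEF2 was highest in replicate 2.

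Ribosome assembly genes were measured for 20 of 30 listed and detected for 18. Nucleolin, NCL, had 8626, 7758 and 10627, the nucleolar chaperone NPM1 had 12781, 11556 and 17922, and NOP2, a methyltransferase of ribosomal RNA, had 775, 959 and 1176. All 3 were highest in replicate 3, but only 6 of the 20 assembly genes were, and their median difference of replicate 3 minus 1 was -0.094. The RNA polymerase I subunit POLR1B (239, 189 and 157) and its activator UBTF (198, 462 and 139) were not detected, with limma adjusted p = 1 and 0.846. UBTF was above the limit in replicate 2 alone, and POLR1B was under it on all arrays.

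Genes that control translation were measured for 10 of 14 listed and detected for 8. EIF4EBP1, the repressor of cap-dependent initiation that mTOR switches off, had 591, 835 and 411. LARP1, which binds the start of TOP messages, had 4594, 4303 and 5212. MTOR (134, 187 and 207) and the S6 kinase RPS6KB1 (221, 132 and 424) were not detected (limma adjusted p = 1 and 0.896), while the related RPS6KB2 was detected at 274, 483 and 358 (limma adjusted p = 0.0136). MTOR and RPS6KB1 were each above the limit in replicate 3 alone.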

How the data were processed

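Affymetrix arrays of 3 IFN-γ-treated HT-29 cultures were analysed as 1 group. The deposited unit is intensity on a linear scale. The submitters' processing notes name MAS5 and Affymetrix Expression Console 1.1, without a scaling target or presence calls that could be used here. Values were present for 22277 of 22283 probe sets. Names were re-ordered as described above, which left 62 control probe sets unnamed. Of the values, 19065 belonged to probe sets with 1 symbol, 1043 to probe sets with several and 2169 to probe sets with none listed. Symbols came from the platform annotation, updated through gene IDs of a RefSeq table (GRCh38.p14).

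No pseudocount was added before log2. Each gene was read from its brightest single-symbol probe set. Of 81 genes listed for the background limit, 69 were measured and 0 detected by limma (0 at an unadjusted p under 0.05); the limit, taken over genes, was also used for probe sets. The log2 excess over the limit was tested one-sided against 0 with limma 3.58.1 under R 4.3.3 (moderated variance with trend, adjusted p of 0.05). These p-values leave out the error of the limit itself, and they refer only to these 3 cultures. Their variance is drawn in part from all genes, so they do not measure a gene's own spread between the cultures alone. For RPLP1 the limma adjusted p was 4.4e-14, but 1.8e-05 without the variance trend and 5.3e-37 with log2(signal + 16). The number of arrays limits the precision.

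Genes named in the text were all undetected members, stalk proteins, the GAIT complex, paralogues with parents, the 5 largest and 3 smallest SDs, the 8 widest ranges over probe sets, and fixed examples. Members and lists were chosen with earlier results of these data known. The group of 115 bright genes was added after seeing the data. Protein sequences were not used here.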

Additional observations from a re-analysis of the deposited data

How the results depend on the processing

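No paired analysis was possible because the 3 arrays form 1 group. The count of 50 detected ribosomal protein genes was 50 with the limit at the 99th percentile, with log2(signal + 16), after quantile normalization, without a variance trend and without any 1 replicate, 51 with the limit at the 90th percentile and 47 with the median over probe sets. Without _x_at and _s_at probe sets it was 13 of 24, and 2807 of 8369 genes were detected in place of 4731 of 11963; fewer genes were tested there, and the ribosomal protein share of signal was 1.02%, 1.09% and 1.25%. Under that setting RPL31 (0.57 log2 units over the limit) and RPS28 (0.19) were no longer detected, and RPL14 (-2.17), RPS6 (-3.75), RPS14 (-0.078), RPL35A (-3.36) and RPL37A (-0.73) lay under the limit. With the median over probe sets, RPS14 (0.18), RPS28 (0.45) and RPL37A (0.27) were not detected, RPL35A lay at -2.20, RPL10L at 0.15, and RPL27A was detected at 0.80. RPL27A lay at -0.20 with the 99th percentile, and was detected at 0.84 with the 90th, where RPL10L lay at 0.18; with 1 replicate left out RPL10L lay between -1.01 and 0.084, the latter without replicate 2. The limit was computed anew from the background genes in every setting. With the median over probe sets it was lower: RPLP1, which has 1 probe set, lay at 6.95 in place of 6.44. RPL27A and RPL10L also have 1 probe set each, so their changes in that setting came from the limit. The probe set settings also leave or weight the dim probe sets, and the cause of the other changes was not tested. After quantile normalization the median difference was 0.034 for replicate 3 minus 1 and -0.0059 for replicate 3 minus 2. The median SD of members was 0.15 to 0.39 with 1 replicate left out. The start tract was found in 82.8% of members within 5 bases and 93.8% within 20, and in 71.9% at the start itself, an alternative chosen after seeing the data.

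Under the names as deposited, 9 ribosomal protein genes, 9 of their probe sets and 408 genes in all were detected, the share of signal was 0.94%, 0.93% and 1.04%, and the median difference of replicate 3 minus 1 was 0.14. The limit was here computed anew from the background genes under those names. It is not the limit given above for each array, and the log2 values that follow are relative to it. RPL9 (0.96) and RPL37 (0.20) were then not detected, and these named genes lay under the limit, in log2 units: RPLP1 -4.87, RPL27A -2.21, RPL3 -6.95, RPL39 -4.99, RPS27 -4.20, RPS27L -5.24, RPS25 -0.55, RPS6 -0.13, RPS14 -3.35, RPL35A -2.24, RPS12 -0.84, RPS28 -5.85, RPL37A -1.73, RPS10 -1.29, RPL11 -0.045, RPS19 -4.88, RPS3 -5.02, RPL23A -2.74, RPL36 -2.04, RPL38 -1.64, RPL31 -2.94 and RPL12 -3.89.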

Other observations

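Some ribosomal protein genes are absent from the gene values above because the annotation lists them only together with other symbols, often a snoRNA. RPL3, RPL23A, RPL27A and RPLP2 are also listed with a snoRNA but have a single-symbol probe set as well. Genes that host snoRNAs were not counted as such. Of the 26 genes of the family without a single-symbol probe set, 16 occurred on probe sets with several symbols and 10 on none listed. In all, 57 probe sets named a ribosomal protein gene with other symbols, 51 of them with a snoRNA. Their signals are given as values of the probe sets and are not assigned to 1 gene. The median of their mean signals was 15301, and 47 of the 57 lay above the limit on all 3 arrays. By limma's test, a different measure, 34% of all single-symbol probe sets were detected. Like the single-symbol genes they were brighter on the array of replicate 3: the median log2 difference of replicate 3 minus 1 was 0.59, and 48 of 57 were highest in replicate 3. Among all detected genes 34.4% were highest there. The 115 other bright genes had 69.6% highest in replicate 3 and a median difference of 0.38, and the difference from them was not tested.

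The 5 probe sets that list RPL13A with its 4 snoRNAs (and, for 4 of them, pseudogenes) had mean signals of 15210, 23710, 28942, 14561 and 26908. A probe set listed under RPL5 and SNORD21, which stands for a protein that binds MDM2 together with RPL11, had 7451, 8692 and 11134, and another with the same listing had 8448, 9618 and 14455. A further probe set with that listing had 32.4, 24.5 and 65.1, and 1 that adds SNORA66 had a mean of 6.39, both under the limit on all arrays. The 4 probe sets listed under SNORD73A and RPS3A had mean signals of 20058, 25178, 25574 and 242. The last of these lay above the limit in replicate 3 alone, so large distances between probe sets of 1 listing were seen here as well.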
